A study of Mus musculus with 12 samples.

Results

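Dnmt1, Dnmt3b, Tet1, Cbx7 and Cbx8 are 5 of the 14899 genes in the deposited table of a mouse RNA-seq study of allelic expression. They were taken by name from the gene column: 4 rows carried the symbol alone, and the Tet1 row joined the symbol to the accession of a RefSeq Tet1 transcript. The table gives for each gene and library a count, the share of those counts from the 129 allele, and FPKM, a level scaled for transcript length and library depth. The cells were hybrids of the 129Sv and Cast/EiJ mouse strains, so every autosomal gene had 1 allele of each strain.

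Embryonic stem (ES) cells were sampled as 2 libraries, 1 of the XX line F1-21.6 and 1 of the XY line F1-23, both grown on mitomycin-inactivated mouse embryonic fibroblast feeders in medium with serum and leukaemia inhibitory factor. Neural progenitor cells (NPC) were sampled as 8 clones, 1 library each. The XX line gave the clones named C2, E1.2, G4 and 129, and the XY line gave mB4, mC3, mG3 and mE6. One clone is labelled 129, and elsewhere 129 stands for the strain and its allele. No treatment or engineered allele is given in the labels for any group. XX and XY clones differ in parental line, sex chromosomes and the prefix of the library name at once, and these cannot be told apart. Each cell type difference between ES and NPC rests on 1 ES library per line.

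DNMT1 copies DNA methylation onto the new strand after replication, DNMT3B is a de novo DNA methyltransferase, and TET1 oxidises 5-methylcytosine, the first step of active demethylation. CBX7 and CBX8 are alternative chromodomain subunits of canonical Polycomb repressive complex 1 (PRC1), which binds nucleosomes carrying the H3K27 trimethyl mark laid down by PRC2. Mouse ES cells are known for abundant DNMT3B, TET1 and CBX7, and XX mouse ES cells for less DNA methylation than XY ones.

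Library totals ran from 61375911 to 119266777 counts. What 1 count stands for is not given in the sources used here. Tet1 had 175298 counts at 55.4 FPKM in XX ES cells where Cbx7 had 78433 at 58.0 and Cbx8 15 at 0.211, so counts per unit of FPKM differed widely between genes, and a count may be an observation at a position that tells the alleles apart, with several from 1 fragment. Exact intervals and tests on the counts of single libraries, which take counts as independent, could then be too narrow. Summed FPKM of the 5 measured ES cell markers was 441 to 713 in the ES lines and 2.27 to 5.29 in the NPC clones, and that of 8 neural progenitor markers was 365 to 414 in ES and 3071 to 5541 in NPC. Olig2, Aqp4 and S100b were listed at 0 in both ES lines. Summed FPKM of 7 fibroblast markers, which feeder cells could supply, was 25.1 and 44.4 in the ES lines, 41.1 in clone E1.2 and 0.925 to 5.2 in the other 7 clones. Summed FPKM of 3 astrocyte markers was 3.27 to 118 in the clones, highest in E1.2, and 0.160 to 0.234 in ES. The part of these other cells in the results below was not tested. Since the samples are bulk cultures, fewer cells expressing a gene and less RNA per cell cannot be told apart.

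The sequence just upstream of the 4 genes with the largest ES to NPC differences is given because CG dinucleotides are the substrate of the DNMT and TET enzymes and a feature of promoters bound by Polycomb complexes. Each stretch reads 5′ to 3′ along the gene's strand, with every CG in capitals. The sequences are from RefSeq (table build GRCm38.p6, C57BL/6J reference, so neither the 129 nor the Cast allele) and were located by exact match in mm9: Cbx7 at chr15:79763207-79763326 (minus strand), Cbx8 at chr11:118902284-118902477 (minus), Dnmt3b at chr2:153474935-153475184 (plus) and Tet1 at chr10:62350212-62350322 (minus). Bases inside annotated exons were trimmed off, so lengths differ and the Cbx8 stretch ends 57 bases before the gene's start. In the GENCODE annotation Cbx7 reaches to 79801549 and Tet1 to 62361866. The Cbx7 and Tet1 stretches thus lie inside the annotated genes, downstream of another annotated start.
Cbx7: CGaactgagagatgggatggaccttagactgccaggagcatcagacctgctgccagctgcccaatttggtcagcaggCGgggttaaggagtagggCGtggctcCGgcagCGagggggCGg
Cbx8: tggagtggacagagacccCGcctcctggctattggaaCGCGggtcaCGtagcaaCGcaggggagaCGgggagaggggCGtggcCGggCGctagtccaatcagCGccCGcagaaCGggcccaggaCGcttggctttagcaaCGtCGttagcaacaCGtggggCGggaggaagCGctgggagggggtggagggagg
Dnmt3b: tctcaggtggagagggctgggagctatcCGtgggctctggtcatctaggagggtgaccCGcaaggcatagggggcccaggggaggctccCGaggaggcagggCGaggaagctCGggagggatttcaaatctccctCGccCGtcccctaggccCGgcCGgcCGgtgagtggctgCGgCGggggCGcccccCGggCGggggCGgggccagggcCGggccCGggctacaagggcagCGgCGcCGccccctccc
Tet1: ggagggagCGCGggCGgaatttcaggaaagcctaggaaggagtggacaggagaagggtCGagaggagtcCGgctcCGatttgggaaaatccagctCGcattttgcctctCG
The dinucleotide CG, which reads the same on both strands, occurred 6 times in the 120 bases of Cbx7, 18 times in the 194 of Cbx8, 21 times in the 250 of Dnmt3b and 8 times in the 111 of Tet1. For comparison, 32851 RefSeq promoters were cut to equal lengths, counted from the distal end of the 250 bases upstream of the RefSeq start. At least 1 CG occurred in 79.3%, 88.5%, 92.1% and 77.7% of them, respectively. At least as many CG occurred in 25.5%, 11.4%, 16.4% and 16.2%. These windows were not trimmed at their own exons. The Cbx7 and Tet1 stretches end next to the gene's start, while the other windows can stop further from theirs. All 4 stretches thus held more CG than most such windows, which is not a comparison at like distance from the start. Methylation was not measured here.

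Dnmt3b, Tet1 and Cbx7 were high in both ES lines and fell to low levels in every NPC clone. Cbx8 went in the other direction, though only up to 5.14 to 7.65 FPKM in the clones. Dnmt1 fell by a smaller step and was the most abundant of the 5 in NPC. For each of the 5 genes, no NPC clone overlapped either ES line in FPKM. This separation is common in these libraries: FPKM did not overlap for 63.6% of 14561 tested genes. edgeR's quasi-likelihood test on counts, with line as a covariate and Benjamini-Hochberg adjustment over all tested genes, called all 5 members (4 lower and 1 higher in NPC), against 63.0% of all genes called, 29.7% lower and 33.3% higher. The size of the change sets Dnmt3b, Tet1, Cbx7 and Cbx8 further apart than the call. It does not do so for Dnmt1, where 53.5% of tested genes changed by more. A change of at least 10-fold downward was called for 6.15% of genes and included Dnmt3b, Tet1 and Cbx7, and one upward was called for 10.7% and included Cbx8.

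**Figure D1:**
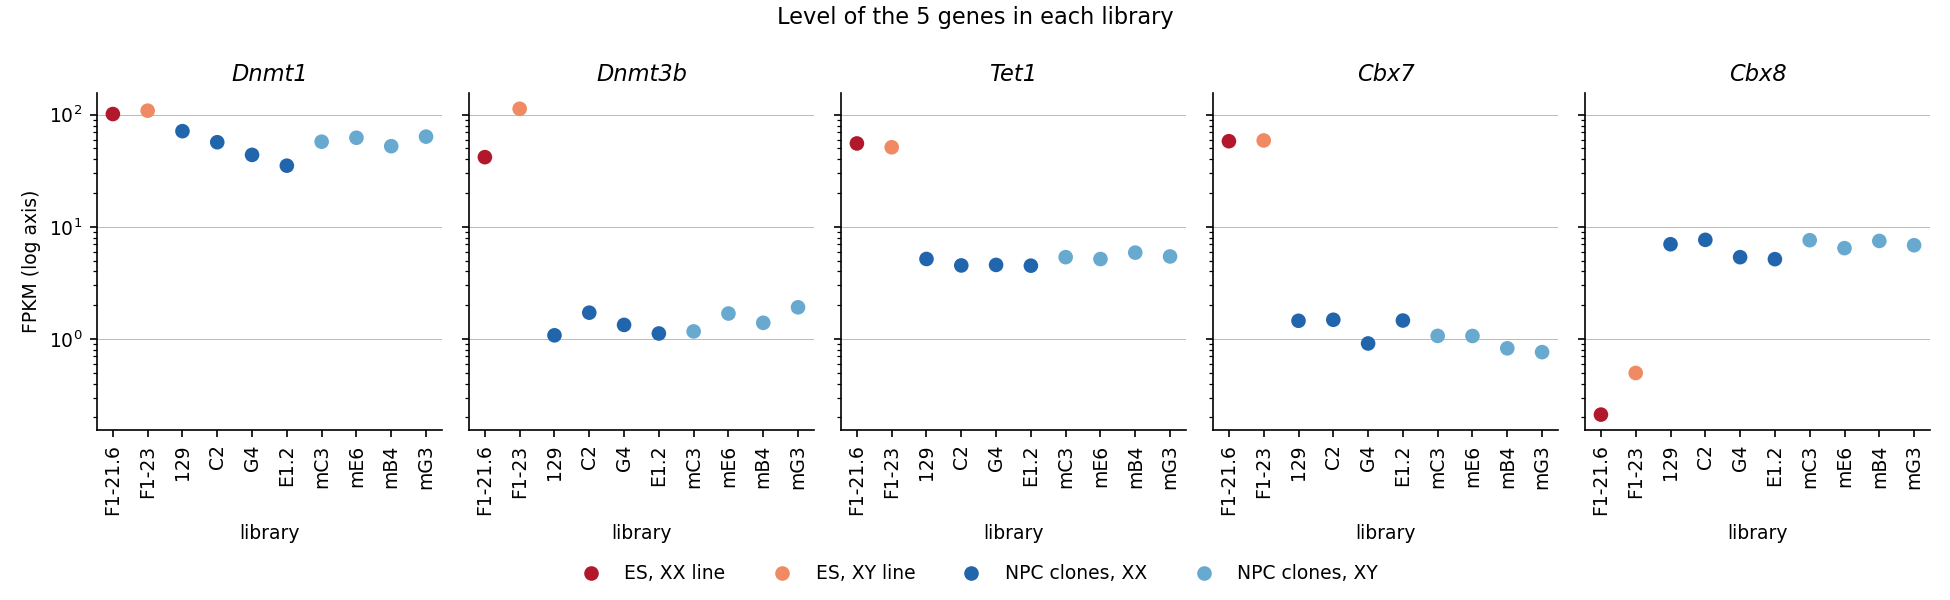
FPKM of the 5 genes (log axis) in each library, ES lines and NPC clones of the XX and XY lines as separate points. Dnmt3b, Tet1 and Cbx7 drop from ES levels of 41.8 to 113 to NPC levels of at most 5.89, Cbx8 rises from below 0.5 to 5.14 to 7.65, and Dnmt1 stays above 35.

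Dnmt1, the maintenance methyltransferase, lies on the minus strand of mm9 chromosome 9 from 20711649 to 20764332, and its annotated transcript with the most exons has 39. Its FPKM was 101 in XX ES cells and 109 in the XY line. The XX clones gave 56.8 in C2, 35.1 in E1.2, 43.8 in G4 and 71.3 in 129, and the XY clones gave 52.3 in mB4, 57.4 in mC3, 63.7 in mG3 and 62.3 in mE6. Both ES lines were above every clone, and the XX clones spread over a wider range than the XY clones, which they enclosed. The mean fell from 105 ± 5.15 (SD, n = 2 ES lines) to 55.3 ± 11.5 (SD, n = 8 clones), a ratio of 1.90. On counts the edgeR log2 change was -1.03 ± 0.20 (SE), with an adjusted p of 0.00167, and 53.5% of tested genes changed by more. With the XX clones as the sole NPC libraries the log2 change was -1.09 and the call was lost (edgeR adjusted p = 0.0718).

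The fall in Dnmt1 ran beside a lower summed level of cell cycle genes. The summed FPKM of 13 proliferation genes (Pcna, the Mcm helicase subunits, mitotic cyclins and others) was 2013 in XX ES cells and 1886 in XY ES cells, and 592 to 1122 in the clones. Of these 13 genes, 10 were called lower in NPC (76.9%, against 29.7% of all tested genes) and none was called higher. The median log2 change was -1.37, against 0.11 over all tested genes. Mki67, a marker of cycling cells, went the other way without a call (53.9 to 72.1 FPKM, edgeR log2 change 0.37). Ccna2 (-0.35) and Cdk1 (-0.36) were not called either. Relative to that sum, Dnmt1 was 5.03% and 5.76% in ES and 6.08 ± 0.379% (SD, n = 8) in NPC, with clones from 5.55 to 6.75% and thus within or above the ES values. Uhrf1, which brings DNMT1 to hemimethylated DNA, was 9.15% and 7.84% of the sum in ES and 3.99 to 5.65% in NPC, so its drop exceeded that of the cell cycle sum. Clone E1.2 had both the lowest Dnmt1 level and the lowest proliferation sum, 592. Whether the lower Dnmt1 followed from fewer cycling cells was not tested.

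**Figure D2:**
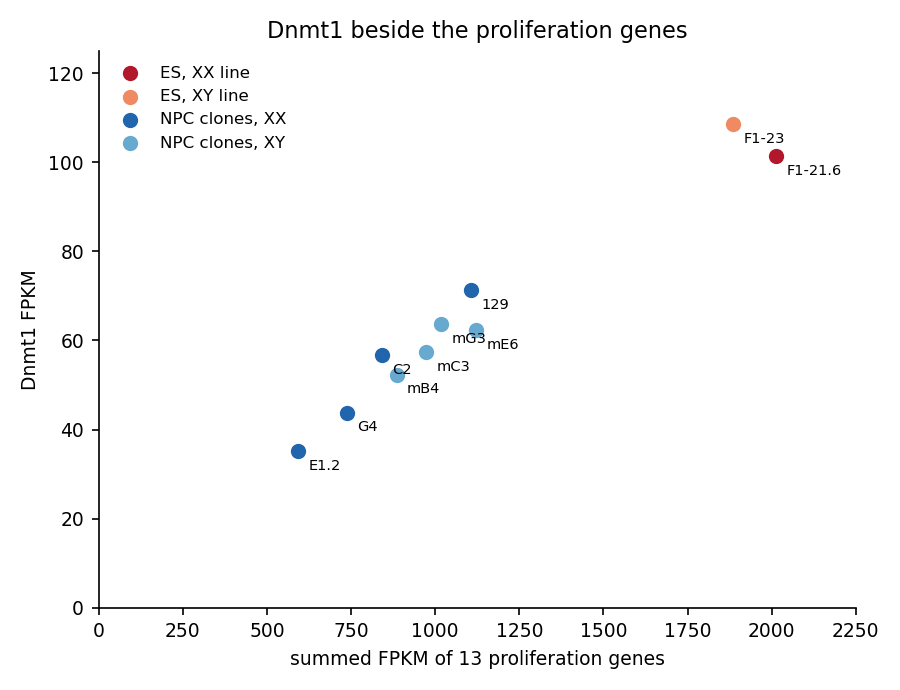
Dnmt1 FPKM against the summed FPKM of 13 proliferation genes, 1 point per library. ES lines lie at 1886 and 2013 on the horizontal axis with Dnmt1 above 101, and the clones lie at 592 to 1122 with Dnmt1 at 35.1 to 71.3.

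Dnmt3b, the de novo methyltransferase, lies on the plus strand of mm9 chromosome 2 from 153475186 to 153513466 (24 exons). Its FPKM was 41.8 in XX ES cells and 113 in XY ES cells. The XX clones gave 1.71 in C2, 1.12 in E1.2, 1.33 in G4 and 1.08 in 129, and the XY clones gave 1.39 in mB4, 1.17 in mC3, 1.91 in mG3 and 1.68 in mE6. All clones were therefore within a range of 1.08 to 1.91, while the ES lines differed from each other more than any clones did. The ES mean was 77.3 ± 50.2 (SD, n = 2) and the NPC mean 1.42 ± 0.312 (SD, n = 8). Within lines the ES level was 31.9 times the NPC mean for XX and 73.3 times for XY. The edgeR log2 change was -5.79 ± 0.28 (SE; adjusted p = 1.02e-06). Even the lowest clone held 1173 counts, so Dnmt3b transcripts remained measurable in NPC.

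Tet1, the oxidase, lies on the minus strand of mm9 chromosome 10 from 62267317 to 62350211 (13 exons). Its FPKM was 55.4 in XX ES cells and 51.2 in XY ES cells. The XX clones gave 4.52 in C2, 4.50 in E1.2, 4.57 in G4 and 5.16 in 129, and the XY clones gave 5.89 in mB4, 5.36 in mC3, 5.44 in mG3 and 5.16 in mE6. Tet1 was the most even of the 5 among clones, with a coefficient of variation of 9.93%, against 26.4% for Cbx7, 21.9% for Dnmt3b, 20.8% for Dnmt1 and 14.6% for Cbx8. The mean fell from 53.3 ± 2.94 (SD, n = 2) to 5.08 ± 0.504 (SD, n = 8), a ratio of 10.5. The edgeR log2 change was -3.52 ± 0.10 (SE; adjusted p = 1.13e-07).

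Cbx7, the chromodomain subunit known from ES cell PRC1, lies on the minus strand of mm9 chromosome 15 from 79746236 to 79763206 (7 exons). Its FPKM was 58.0 in XX ES cells and 58.9 in XY ES cells. The XX clones gave 1.48 in C2, 1.46 in E1.2, 0.911 in G4 and 1.45 in 129, and the XY clones gave 0.824 in mB4, 1.06 in mC3, 0.762 in mG3 and 1.06 in mE6. The ES lines were nearly equal and far above all clones, and among the XX clones G4 stood below the other 3. The mean fell from 58.4 ± 0.647 (SD, n = 2) to 1.13 ± 0.298 (SD, n = 8), a ratio of 51.9. The edgeR log2 change was -5.82 ± 0.21 (SE; adjusted p = 2.57e-07), and 8.27% of tested genes changed by more.

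Cbx8, a chromodomain subunit of the same family known from differentiated cells, lies on the minus strand of mm9 chromosome 11 from 118899749 to 118902227 (5 exons). Its FPKM was 0.211 in XX ES cells and 0.497 in XY ES cells, from 15 and 26 counts. The XX clones gave 7.65 in C2, 5.14 in E1.2, 5.36 in G4 and 6.99 in 129, and the XY clones gave 7.48 in mB4, 7.59 in mC3, 6.85 in mG3 and 6.45 in mE6. Every clone was above both ES lines, with 457 to 758 counts behind each clone. The mean rose from 0.354 ± 0.202 (SD, n = 2) to 6.69 ± 0.977 (SD, n = 8), a ratio of 18.9. The edgeR log2 change was 4.44 ± 0.34 (SE; adjusted p = 9.2e-06). On the log2(FPKM + 1) scale, which understates changes of low genes, limma gave 2.50 (adjusted p = 6.01e-07).

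The order of the members by FPKM changed with cell type. In the XX ES line it was Dnmt1, Cbx7, Tet1, Dnmt3b and Cbx8 from high to low, and in XY ES cells Dnmt3b came first, with the other 4 in the same order. In all 8 clones Dnmt1 came first, followed by Cbx8 and then Tet1. Cbx7 and Dnmt3b were the lowest pair, with Cbx7 above Dnmt3b in clones 129 and E1.2 and below it in the other 6. Their NPC means of 1.13 and 1.42 differed by less than the SD of Dnmt3b, 0.312, and were not told apart by their spread. Cbx7 and Tet1 in the ES lines, at 58.4 ± 0.647 and 53.3 ± 2.94, were close as well, with Cbx7 higher in both lines.

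The Polycomb chromodomain subunits are alternatives for 1 position in canonical PRC1, so relative abundance was computed as each gene's share of the summed FPKM of Cbx2, Cbx7 and Cbx8. Other subunits of the family were not used here (the row of Cbx6 is joined with neighbouring genes), so these are shares among 3 genes and not of all PRC1. Cbx7 made up 84.0% of the sum in XX ES cells and 83.4% in XY ES cells, and 7.34 ± 3.19% (SD, n = 8) in NPC, where E1.2 was highest at 14.4% and mG3 lowest at 4.26%. Cbx8 made up 0.306% and 0.704% in ES and 41.8 ± 4.91% in NPC. Cbx2 went from 15.7% and 15.9% to 50.9 ± 7.56% although its own level did not pass the test (FPKM 11 to 8.42, edgeR log2 change -0.45, adjusted p = 0.24). The sum itself was lower in NPC, 69.0 and 70.6 FPKM in ES and 10.2 to 19.7 in the clones. Of these 3, Cbx7 therefore made up most of the transcripts in ES, while in NPC Cbx2 and Cbx8 shared most of the sum. These are transcript levels, and protein was not measured.

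**Figure D3:**
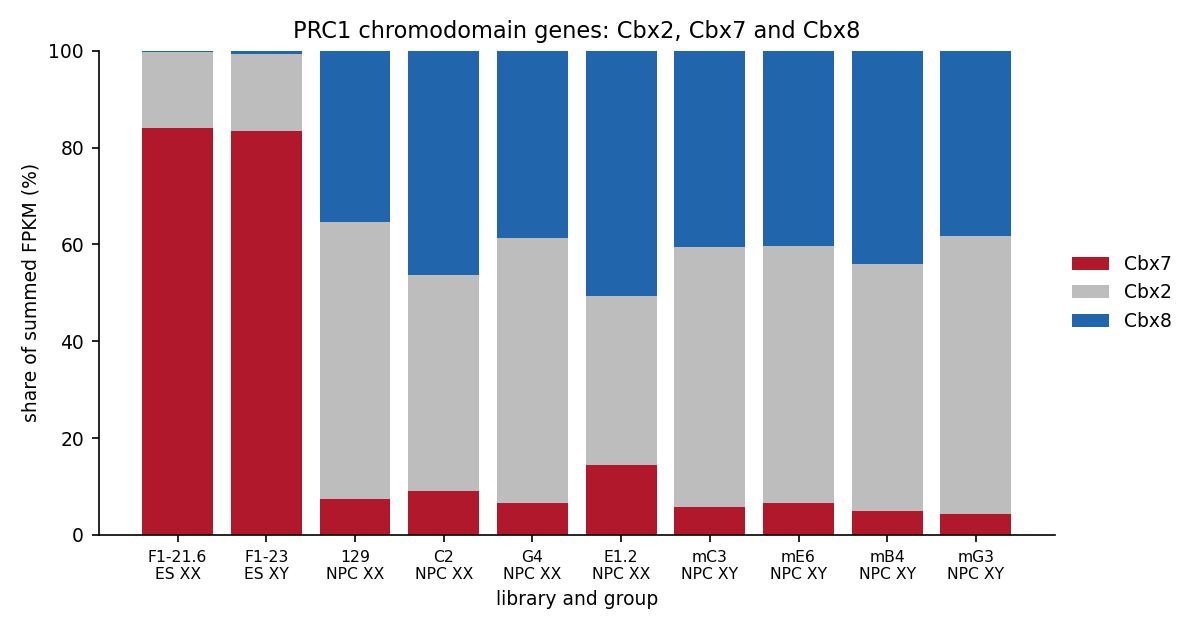
Share of the summed FPKM of Cbx2, Cbx7 and Cbx8 (percent, stacked bars from 0) in each library. Cbx7 fills 83.4 to 84.0% of the ES bars and 4.26 to 14.4% of the NPC bars, where Cbx8 takes 35.5 to 50.6%.

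Cbx2 is a close neighbour of Cbx8 on chromosome 11 in mm9, at 118884342 to 118892584 on the plus strand, and ends 7164 bp from the near end of Cbx8. Cbx8 rose (edgeR log2 change 4.44 ± 0.34, SE) while Cbx2 did not pass the test.

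The ratio of Cbx7 to Cbx8 was 274 in XX ES cells and 119 in XY ES cells, both resting on few Cbx8 counts. In NPC the ratio was inverted: Cbx8 was 6.33 ± 1.96 times Cbx7 (SD, n = 8). The 4 XX clones had Cbx8 to Cbx7 ratios of 5.16 in C2, 3.53 in E1.2, 5.88 in G4 and 4.82 in 129. The 4 XY clones had ratios of 9.07 in mB4, 7.13 in mC3, 8.98 in mG3 and 6.07 in mE6. All XX clones were below all XY clones, although in FPKM each gene alone overlapped between the lines. How often ratios of other genes separate the clones in this way was not counted. The ratio was computed after the levels had been seen and was not tested.

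Among NPC clones no member was called between XX and XY by edgeR, where 1.29% of 13591 genes were called. Cbx7 came nearest. Its library-scaled counts (CPM from edgeR with TMM factors) were 32.8, 27.4, 20.3 and 33.2 in the XX clones C2, E1.2, G4 and 129, and 15.9, 16.8, 14.3 and 19.8 in the XY clones mB4, mC3, mG3 and mE6. On that scale the clone groups did not overlap, while in FPKM G4 lay within the XY range. The share of all genes whose XX and XY clones do not overlap was not counted, so this separation is not read as unusual. The edgeR log2 difference, XX minus XY, was 0.76 ± 0.18 (SE; 95% interval 0.34 to 1.18; unadjusted p = 0.00321, adjusted p = 0.0758). The fibroblast marker sum also separated these clones, at 1.41 to 41.1 FPKM in XX and 0.925 to 1.01 in XY, and its part in the Cbx7 difference was not tested. DESeq2 gave 0.78 with an adjusted p of 0.00235 and called it, in an analysis that called 1945 genes against 175 with edgeR.

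The other members gave smaller XX minus XY differences. Dnmt1 differed by -0.22 (95% interval -0.68 to 0.24), Dnmt3b by -0.19 (-0.74 to 0.37), Tet1 by -0.10 (-0.30 to 0.09) and Cbx8 by -0.07 (-0.51 to 0.37) on the log2 scale. Their edgeR adjusted p-values were 0.535, 0.67, 0.488 and 0.841.

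Among the members Dnmt3b differed most between the ES lines, at 113 FPKM in XY and 41.8 in XX, a ratio of 2.70. With 1 library per line there is no replicate check and no test. Of 10598 genes with sufficient FPKM, 4.29% were at least 2-fold higher in XY, 3.15% at least 2-fold lower, and 2.09% had a higher XY to XX ratio than Dnmt3b. The ratio was 1.07 for Dnmt1, 0.925 for Tet1 and 1.02 for Cbx7, and 2.35 for Cbx8, which rests on 15 and 26 counts. Of the 53 DNA methylation and Polycomb genes compared, 4 passed 2-fold in FPKM, a share near that of all genes (4.29% higher and 3.15% lower). Higher in XY were Dnmt3b, Dnmt3a (17.6 FPKM in XX and 38.6 in XY) and Cdkn2b, and lower in XY was Scml2, a PRC1-associated gene (2.58 and 1.26). Both de novo methyltransferase genes were thus higher in XY ES cells. By counts relative to the library total the XY to XX ratio was 2.58 for Dnmt3b and 1.68 for Dnmt3a. The XY ES library also had the higher fibroblast marker sum, 44.4 against 25.1, and the lower ES marker sum, 441 against 713. The part of these in the Dnmt3b difference was not tested.

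Whether the ES to NPC step differed between lines was tested as an interaction, which edgeR called for 0.101% of 14848 genes and for none of the 5 members. The Dnmt3b step was smaller in the XX line by 1.21 ± 0.53 (SE) on the log2 scale (95% interval -0.01 to 2.43, adjusted p = 0.459). For Cbx7 it was smaller in XX by 0.87 ± 0.39 (-0.04 to 1.77, adjusted p = 0.474). For Dnmt1, Tet1 and Cbx8 the interaction was -0.10, -0.22 and 0.66, with adjusted p-values of 1, 0.816 and 0.724. The design has 1 ES library per line, which limits this test. Both ES libraries and the XY clones carry 1 library name prefix and the XX clones another, so the XX step and this interaction cannot be told apart from the prefix.

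Allelic expression was the measurement of the study. None of the 5 members was monoallelic, meaning at least 85% of at least 20 counts from 1 allele with an exact binomial test against 50% passing a Benjamini-Hochberg adjusted p of 0.05 within the library. Cbx8 could be assessed in 9 libraries and the other members in all 10, and 0 of these member and library pairs were called, against 6.54% of all autosomal gene and library pairs. In each library all members with enough counts were therefore transcribed from both strain alleles. Small departures from 50% were common with these depths, called for 71.6% of all pairs.

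**Figure D4:**
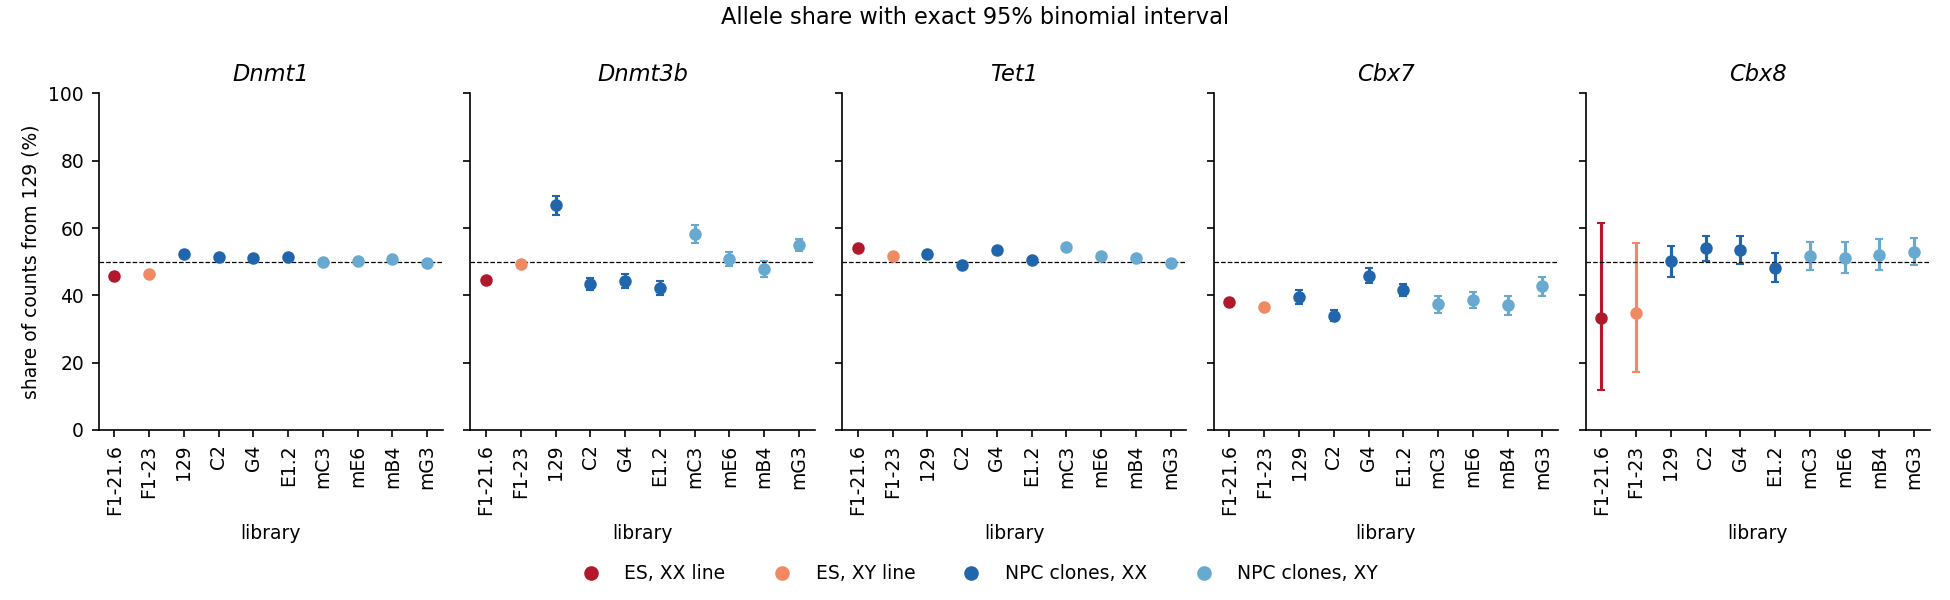
Share of counts from the 129 allele (percent) for the 5 genes in each library, with exact Clopper-Pearson 95% intervals that cover counting error only and take counts as independent. Dnmt1 and Tet1 lie within 45.6 to 54.3%, Cbx7 lies below 50% in every library, and Dnmt3b in clone 129 lies at 66.8%.

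Cbx7 had more Cast than 129 counts in every library. Its 129 share was 38.1% and 36.7% in XX and XY ES cells, 33.9%, 41.5%, 45.8% and 39.5% in C2, E1.2, G4 and 129, and 37.0%, 37.3%, 42.6% and 38.6% in mB4, mC3, mG3 and mE6. The share in NPC, 39.5 ± 3.72% (SD, n = 8), overlapped the ES values (edgeR log2 odds difference 0.13 ± 0.16, SE, 95% interval -0.23 to 0.49, adjusted p = 0.623). Both alleles fell: the ES to NPC ratio was 49.4 for the 129 allele and 53.4 for the Cast allele in FPKM. The Cast excess was present before and after this step.

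Dnmt3b had the widest allelic spread of the 5 among clones. Its 129 share was 44.5% and 49.3% in XX and XY ES cells, 43.4%, 42.2%, 44.2% and 66.8% in C2, E1.2, G4 and 129, and 47.9%, 58.2%, 55.0% and 50.8% in mB4, mC3, mG3 and mE6. Clone 129 stood apart from the other XX clones, with a 95% interval of 64.0 to 69.4% if its 1173 counts are independent, and 129 and mC3 were the highest of their lines. The SD among the 8 clones was 8.51 percentage points. Among 11253 autosomal genes the median SD was 3.27 points and 19.1% had a larger one, and among 6949 genes with at least 1000 counts in every clone 5.17% did. Each clone is 1 library, so clone differences and library preparation cannot be told apart. Mean balance did not differ detectably between NPC and ES (edgeR log2 odds difference 0.24 ± 0.34, SE, 95% interval -0.54 to 1.01, adjusted p = 0.679). Both alleles fell, 51.4-fold for 129 and 57.2-fold for Cast in FPKM.

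Dnmt1 was the least variable. Its 129 share was 45.6% and 46.4% in XX and XY ES cells, 51.4%, 51.4%, 51.0% and 52.2% in C2, E1.2, G4 and 129, and 50.8%, 49.8%, 49.7% and 50.1% in mB4, mC3, mG3 and mE6. Every clone was above both ES lines, and the SD among clones was 0.876 points, smaller than that of 97.9% of genes. Balance shifted toward the 129 allele in NPC by 0.28 ± 0.05 log2 odds (SE; 95% interval 0.17 to 0.38; edgeR adjusted p = 0.00364), where 20.8% of 10446 autosomal genes were called. With the XY clones as the sole NPC libraries the shift was 0.21 and the call was lost (edgeR adjusted p = 0.0774). The Cast allele fell 2.08-fold and the 129 allele 1.72-fold in FPKM.

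Tet1 stayed near equal expression, with a 129 share of 54.1% and 51.6% in the ES lines and 49.0 to 54.3% in the clones. Its shift between NPC and ES was -0.08 log2 odds (95% interval -0.27 to 0.12, edgeR adjusted p = 0.577). The rise of Cbx8 brought both alleles to similar levels, with a 129 share of 48.3 to 54.0% in the clones. In the ES lines the Cbx8 share was 33.3% (95% interval 11.8 to 61.6) and 34.6% (17.2 to 55.7), too imprecise for a comparison, and Cbx8 did not enter the test. Between XX and XY clones no member was called for balance by edgeR, where 0.0267% of 11253 genes were called. The adjusted p-values were 0.579 for Dnmt1, 0.891 for Dnmt3b, 0.963 for Tet1, 0.925 for Cbx7 and 0.965 for Cbx8.

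The other genes of DNA methylation and Polycomb were described from lists of 65 genes, of which 56 including the members were measured in rows of their own. In NPC 16 of the 56 were called higher (28.6%) and 25 lower (44.6%), against 33.3% and 29.7% of all tested genes, with a median log2 change of -0.40 against 0.11 over all genes. The 9 others were either in rows shared with other genes (Zbtb38, Phf1, Cbx6, Yaf2) or not analysed here. None of the 56 was called between XX and XY clones, where 1.29% of all tested genes were, or for the interaction, where 0.101% were. With calls this rare, none among 56 says little about these genes.

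**Figure D5:**
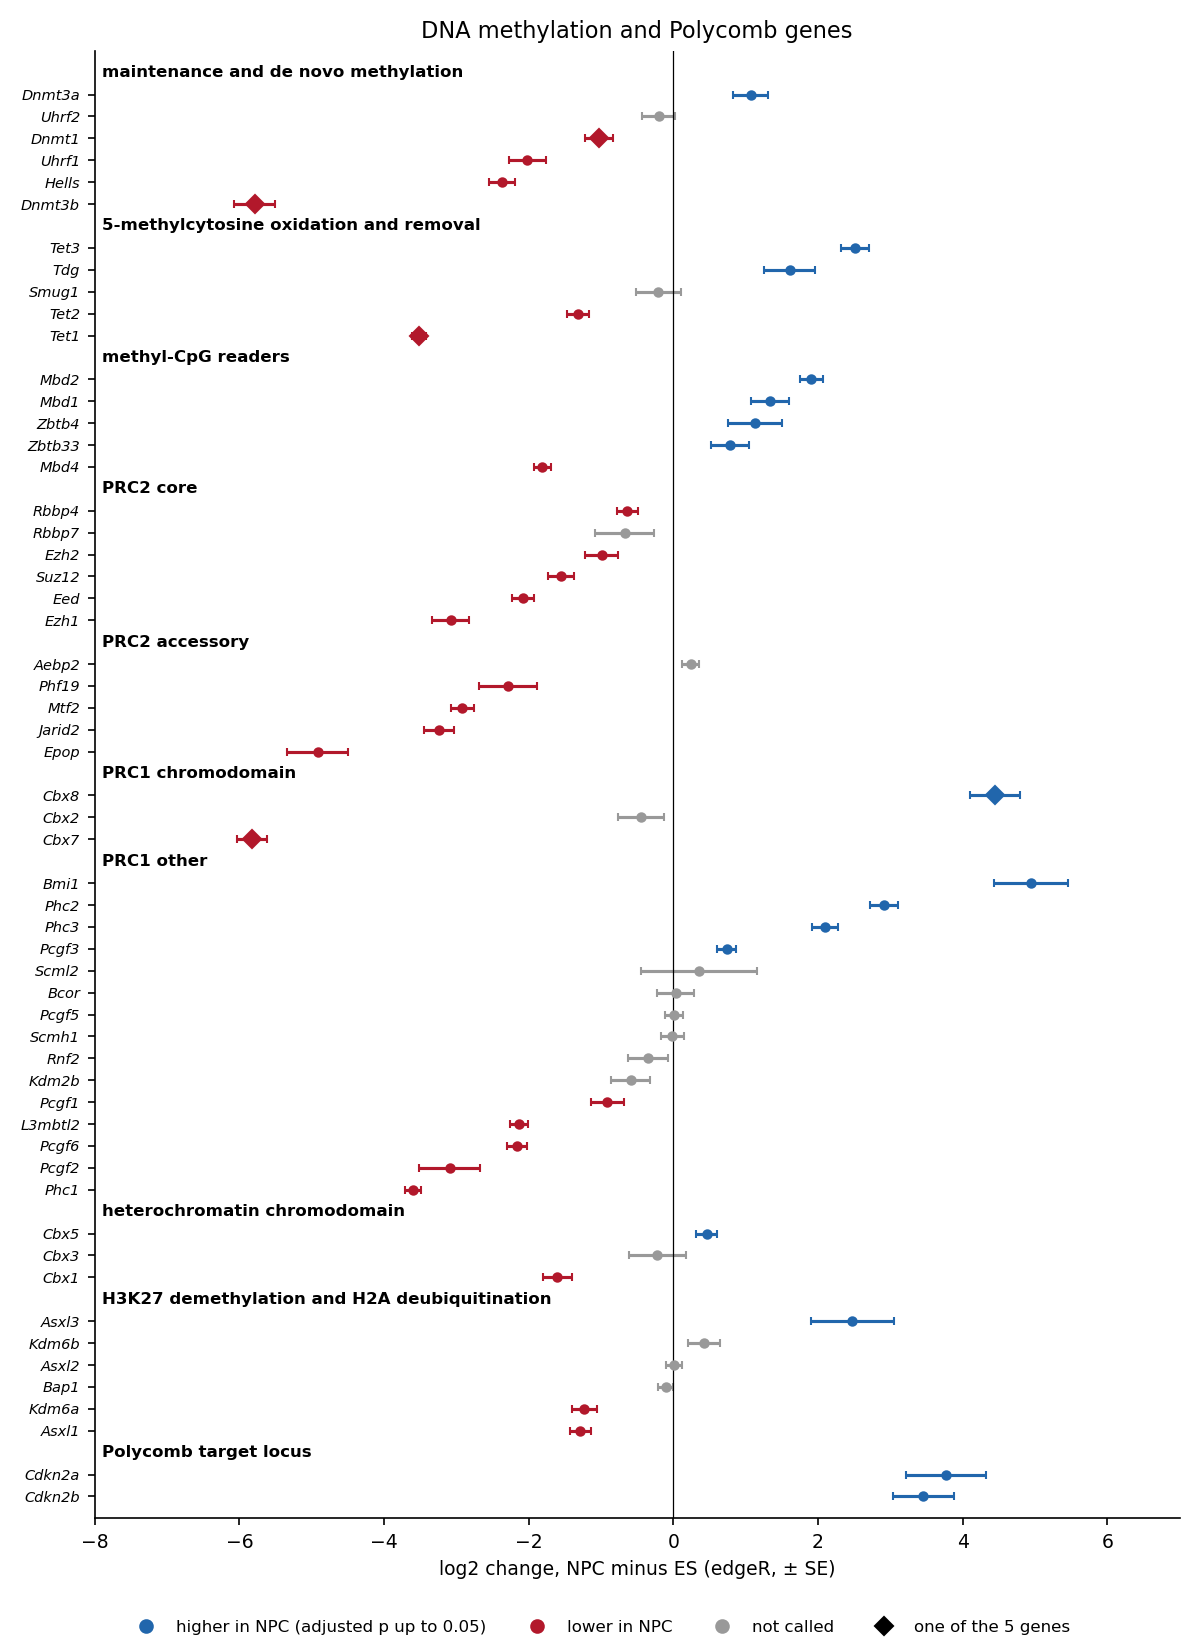
edgeR log2 change, NPC minus ES, with SE for the measured DNA methylation and Polycomb genes grouped by role. PRC2 core and accessory genes lie at or below 0 apart from Aebp2 at 0.24, while Bmi1 and Cbx8 lie above 4.

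Of the 6 measured genes of maintenance and de novo methylation, Dnmt1 and Dnmt3b included, 4 were called lower and 1 higher, against 29.7% and 33.3% of all tested genes, with a median of -1.52. The 1 called higher was Dnmt3a, whose FPKM moved in opposite directions in the XX and XY lines. It was 17.6 in XX ES cells and 21.2 to 28.1 in the XX clones. In the XY line it was 38.6 in ES cells and 19.6 to 23.0 in the clones. Hells, a chromatin remodeller needed for DNA methylation, fell by 2.37 on the log2 scale, from 108 to 20 FPKM, and Uhrf1 fell by 2.02, from 166 to 43.6. For Dnmt3a, the other de novo enzyme, the change was 1.07 ± 0.24 (SE) in edgeR counts (adjusted p = 0.00364) but -0.21 in limma on log2(FPKM + 1) (adjusted p = 0.444), with 28.1 FPKM in ES and 22.6 in NPC. Its count-based change was 0.60 without the XX ES line and 1.68 without the XY ES line. Against Dnmt3b at 1.42 FPKM, Dnmt3a at 22.6 was the more abundant de novo transcript in NPC, whereas in both ES lines Dnmt3b was the higher.

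The TET family moved in opposite directions. Tet1 fell 10.5-fold, Tet2 fell by 1.32 on the log2 scale (14.5 to 5.81 FPKM), and Tet3 rose by 2.52 (2.51 to 15.3 FPKM; edgeR adjusted p = 9.52e-06). In ES Tet1 was the highest of the 3 and Tet3 the lowest, and in NPC Tet3 was the highest, with 12.7 to 18.8 FPKM against 4.50 to 5.89 for Tet1. Tdg, the glycosylase that removes oxidised methylcytosine, rose by 1.61 in counts (edgeR adjusted p = 0.00341), but limma on log2(FPKM + 1) gave 0.31 (adjusted p = 0.0969), and the count-based change was 1.01 without the XX ES line and 2.44 without the XY ES line. Of 5 readers of methylated CG sites described here, 4 were called higher and 1 lower, against 33.3% and 29.7% of all tested genes: Mbd2 rose by 1.91, Mbd1 by 1.34 and Zbtb4 by 1.13, and Mbd4, a glycosylase with a methyl-CG binding domain, fell by 1.81. The Zbtb4 call was lost without the XX ES line (0.79, edgeR adjusted p = 0.236).

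PRC2 writes the mark that CBX7 and CBX8 read. Of its 6 core genes 5 were called lower and none higher (median -1.27), where 29.7% of all tested genes were called lower. Rbbp7 was not called (-0.68, edgeR adjusted p = 0.172), in a test that rests on 191 and 88 counts in XX and XY ES cells. In FPKM Rbbp7 was lower in every clone, at 172 to 307 in ES and 108 to 145 in NPC. Ezh1 fell by 3.08, Eed by 2.08 (104 to 24.5 FPKM) and Suz12 by 1.56. Of 5 measured accessory genes 4 were called lower and none higher (median -2.92), and Aebp2 was not called (0.24, edgeR adjusted p = 0.108). Epop, listed under an older symbol, fell by 4.92 (97.8 to 3.54 FPKM), Jarid2 by 3.24 (101 to 11.2), Mtf2 by 2.92 (75.4 to 10.5) and Phf19 by 2.28.

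Of 15 PRC1 genes beyond the chromodomain subunits 4 were called higher and 5 lower (median -0.02), shares near the 33.3% and 29.7% of all tested genes. Among the PCGF subunits Bmi1 rose by 4.95 (1.23 to 37.2 FPKM) and Pcgf2 fell by 3.09 (37.5 to 4.31). Pcgf3 rose by 0.74 and Pcgf1 fell by 0.92 (11.6 to 5.32 FPKM). Pcgf5 gave 0.01 in counts (edgeR adjusted p = 0.972) but was lower in NPC by FPKM. Its FPKM was 10.5 to 12.2 in ES and 4.74 to 6.18 in NPC, so the 2 measures differ. The Bmi1 change rests on 78 and 29 counts in the ES lines and was 6.16 without the XX ES line and 4.17 without the XY ES line. Among the polyhomeotic subunits Phc2 rose by 2.91 (13.4 to 93.1 FPKM), Phc3 rose by 2.10 (2.08 to 9.32) and Phc1 fell by 3.60 (194 to 16.2). Subunits of variant PRC1 complexes, Pcgf6 and L3mbtl2, fell by 2.16 and 2.13. At the Cdkn2a to Cdkn2b locus, which encodes cell cycle inhibitors and is a textbook target of CBX7, CBX8 and BMI1, both genes rose: Cdkn2a by 3.77 (12.3 to 151 FPKM) and Cdkn2b by 3.46 (2.65 to 29.8).

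For each member, the genes with the most similar profile were found by the root mean square difference of log2(FPKM + 1) values centred on their mean, over the 10 libraries and 10958 autosomal genes. Profiles of this kind share the ES to NPC step, so the values are a description. Dnmt1 was closest to Incenp (0.08), Kif2c (0.08) and Ccdc99 (0.08), with genes that act in mitosis among them, against a median difference of 0.59 over genes. In FPKM these 3 went from 77.0 to 42.6, 55.7 to 26.8 and 16.0 to 7.90 between ES and NPC, against 105 to 55.3 for Dnmt1. For the other 4 members the pseudocount compresses the low group and the nearest genes differed in fold: Tet1 was closest to Dnajc6 (0.10), which went from 7.81 to 0.0398 FPKM against 53.3 to 5.08 for Tet1. No likeness is therefore read for Dnmt3b, Tet1, Cbx7 and Cbx8.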

How the data were processed

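RNA was made into poly(A) libraries and read as 100 bp pairs, per the series' design text. TopHat 1.4.0, Cufflinks 1.3.0, SAMtools and build mm9 are named in the submitters' processing notes; which step made which column is not given in the sources used here. The authors deposited whole-number counts, the 129 share (a fraction of those counts) and FPKM per gene, per the file headers; what 1 count stands for is not given in the sources used here. Counts multiplied by shares gave whole numbers within 0.0019, from which the allele counts were taken. The 2 repeat libraries were not analysed here.

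Counts were tested with edgeR 4.0.16 (TMM, filterByExpr, quasi-likelihood, R 4.3.3). NPC against ES used all 10 libraries with line as covariate, XX against XY the 8 clones. Allele balance used 129 and Cast counts with library as block and at least 20 counts in each library. P-values were adjusted over all tested genes (Benjamini-Hochberg, 0.05). DESeq2 1.42.0 and limma 3.58.1 on log2(FPKM + 1) were alternatives. The scripts were tested on simulated data. Clones are separate clones of 2 lines, so p-values measure the spread among clones. Depth was 61375911 to 119266777 counts. Intervals of allele shares in single libraries cover counting error only and take counts as independent; those of edgeR differences rest on the spread among libraries.

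The members and lists were chosen with earlier results of these data known, so their p-values describe and are no independent support. Named by rule besides the members were the Dnmt, Tet and Cbx genes and, per list, up to 6 called genes with the largest log2 change of at least 1. Further genes outside that rule are named for contrast, among them Rbbp7, Aebp2, Pcgf1, Pcgf3, Pcgf5, Phc3, Scml2 and Bap1. Some list genes are not reported here, and counts and sums leave them out. Gene positions and exon numbers are from the table and GENCODE M1 on mm9. Exon numbers are those of the annotated transcript with the most exons, which can reach beyond the positions given. Whether counting used strand is not given in the sources used here.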

Additional observations from a re-analysis of the deposited data

Results flagged for a closer look

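In 30 groups of 4 or 8 libraries (5 genes, FPKM and 129 share, XX clones, XY clones and all clones), the most extreme library was compared with its neighbours by Dixon's criterion, which by chance marks about 1 in 20 groups. It marked 3. The Dnmt3b 129 share of XX clone 129 was 66.8%, with the next XX clone at 44.2%, a gap of 0.918 of the range. The Tet1 FPKM of the same clone was 5.16, above 4.50 to 4.57 in the other XX clones (0.893 of the range) and inside the XY range. The Cbx7 FPKM of XX clone G4 was 0.911, below 1.45 to 1.48 in the other XX clones (0.946 of the range) and inside the XY range. No cause was tested.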

How the results depend on the processing

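The call for NPC against ES held for Dnmt3b, Tet1, Cbx7 and Cbx8 in every alternative run (DESeq2, no count filter, limma on FPKM, either line's clones alone, each library left out), and for Dnmt1 in all but the XX clones alone (-1.09, adjusted p = 0.0718). That setting called 5465 genes against 9173. Dnmt3a changed sign without a call in limma on FPKM (-0.21 with a pseudocount of 1, with 0.1 and with no filter). Cbx3 changed sign with the XY clones alone (0.084). Leaving out single libraries gave -0.46 to 0.071 for Cbx3, the upper value without the XX ES line. For XX against XY clones, genes called were 1945 with DESeq2, 407 and 384 with limma (pseudocounts 1 and 0.1) and 7 (without mB4) to 496 (without clone 129) leaving out each clone, against 175. Cbx7 was then called with DESeq2 alone (0.78, adjusted p = 0.00235), and Cbx8 ran from -0.17 to 0.051 (without E1.2). Interaction calls numbered 568 with DESeq2, 81 with limma and 3 (without mE6) to 30 (without clone 129) leaving out each clone, against 15, and Dnmt1 ran from -0.28 to 0.034 (without E1.2). For allele balance, NPC against ES gave 946 genes with the XY clones alone and 1253 to 2167 leaving out each library (lowest without the XX ES line), against 2173. Dnmt1 was then 0.21 (adjusted p = 0.0774) with the XY clones alone, and Tet1 was 0.0017 there and -0.16 to 0.0017 leaving out each library. XX against XY balance gave 1 to 8 genes leaving out each clone, against 3, with Tet1 from -0.061 to 0.031 (above 0 without C2 or mC3), Cbx7 from -0.038 (without G4) to 0.20 and Cbx8 from -0.081 to 0.030 (without E1.2). Monoallelic pairs were 3.45% at a 95% threshold and 3.78% with at least 100 counts, against 6.54%, with no member in either. The causes were not tested. Leaving out an ES line leaves 1 ES library, assumed to vary like the clones. Depth limits the Cbx8 share in ES, which rests on 15 and 26 counts. No pairing of single clones was possible because the clone numbers only count clones within a line and tie no XX clone to an XY clone. Clones and ES libraries share the line, which was a covariate for NPC against ES.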

Other observations

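The chromodomain genes of heterochromatin protein 1 read H3K9 methylation and share the Cbx name. Cbx1 fell by 1.60 on the log2 scale (205 to 81.5 FPKM, edgeR adjusted p = 0.000118), Cbx5 rose by 0.46 (60.0 to 84.3 FPKM, adjusted p = 0.0215), and Cbx3 gave -0.22 (9.38 to 8.87 FPKM, adjusted p = 0.642). Cbx5 missed the threshold when either ES library was left out (edgeR adjusted p = 0.107 with F1-21.6 left out, 0.101 with F1-23 left out). Among enzymes that undo Polycomb marks, 1 of 6 genes was called higher and 2 lower, against 33.3% and 29.7% of all tested genes. Kdm6a, an X-linked H3K27 demethylase, fell by 1.23 (22.1 to 10.3 FPKM), and Asxl1, the partner of the H2A deubiquitinase BAP1, fell by 1.29 (36.5 to 15.5 FPKM). Asxl3 rose by 2.47 from 0.144 to 0.796 FPKM, which missed the threshold with F1-21.6 left out (edgeR adjusted p = 0.0614), and Bap1 itself was 39.2 FPKM in ES and 38.6 in NPC (edgeR log2 change -0.10, adjusted p = 0.405).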
